A study of Drosophila melanogaster with 2 samples.

Results

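In the reference annotation, the 8 genes of Drosophila melanogaster described here carry a transposon insertion within their span or across its start. Whether the sequenced flies carry these insertions was not tested. The genes are neuroligin, Prosap, bxd, uif, scrib, CG32850, CG12535 and CG42249. They were chosen by their entry, at the authors' fold and adjusted p, in the deposited list of features higher in homozygous ovaries when reads with up to 10 mappings were counted. Each holds a listed insertion on its own strand of a family other than Transpac or Burdock. The 8 genes made up 20 of the 367 entries of that list, which holds 271 distinct gene identifiers, those of insertions and piRNA cluster strands included. Another 15 listed genes also hold a listed same-strand insertion, 4 of them of Transpac, 3 of Burdock and 8 of further families, and these serve below for comparison. The listing itself chose the genes, so their rise is a description and carries no test. By the ratio of its p-values to its adjusted p-values, the authors' deposited table was adjusted over about 23690 entries, of which 1.55% were listed as higher. The largest adjusted p in the authors' deposited table was 0.0985, and the largest of an entry of these genes was 0.0889, for Prosap.

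One library came from ovaries of homozygous z3-5967 flies and the other from ovaries of heterozygous z3-5967 flies. The mutation is in minotaur (mino, CG5508). Both groups therefore carry the mutation, and no wild-type library was analysed. The flies were 3 to 5 days old and kept at 25 °C, and as each genotype had a single library, nothing below could be checked against replicates. Mino itself was in none of the 4 lists searched, which leaves the genotype labels unchecked by its level. Of the marker genes looked up, 0 of the 4 germline markers that could be matched and 0 of 5 nervous system markers were listed in either direction, while 4 of 4 fat body and 3 of 4 muscle markers were listed as higher and 1 of 5 follicle cell markers, Cp38, as lower. The marker genes were chosen with earlier results of these data known, so these counts are a description with no test. Of all entries with up to 10 mappings, 1.55% were listed as higher. A marker whose identifier changed after the lists were made would count as not listed. The part of other tissue in the results below was not tested. In whole ovaries, fewer cells of a type and less RNA per cell cannot be told apart.

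Piwi-interacting RNAs (piRNAs) guide Piwi proteins to transposon transcripts and silence them in the ovary, both in germ cells and in the follicle cells around them. The study's title places mino in primary piRNA biogenesis. The insertions in the 8 genes belong to 3S18, diver, HMS-Beagle, Stalker, Stalker2 and roo, all LTR retrotransposons, which are transcribed as one long RNA from a promoter in the first long terminal repeat. When such an element sits in an intron on the strand of the gene, its reads lie inside the gene's span and on the gene's strand.

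Values are normalized reads, meaning reads divided by a size factor of each library. For the lists with up to 10 mappings they were computed from the authors' mean over both libraries and the authors' fold. The per-library columns of these lists are headed zucMUT and zucCD, names that fit neither sample. That the lists compare homozygous with heterozygous z3-5967 ovaries is taken from their deposited names and from entries with the same reads in the uniquely mapped lists, 18 of 108 shared higher ones and 16 of 26 shared lower ones. A single homozygous read was worth 0.863 normalized reads and a heterozygous one 1.16, so reads could be counted back. Intervals in parentheses are exact 95% intervals on those reads. These reflect counting error alone, for the 2 libraries as sequenced, and say nothing of the spread between flies of a genotype. What is left for a gene is its value minus that of its insertion, which holds if every read of the insertion was also counted for the gene. A gap of 10% of the insertion's mean or less is called close.

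Taking for each gene the entry with the highest mean, the insertion made up most of that mean in 5 of the 8 genes. For 3 of them, bxd, CG42249 and uif, the insertion had as many reads as the gene or 1 fewer. For CG12535 and neuroligin they were 97.7% and 95.3% of the mean, for Prosap 45.9% and for scrib 38.3%. In the entry with the lowest mean the share was 50.9% for Prosap and 56.1% for scrib. CG32850 had a lower mean than its insertion. Thus 5 of the 8 means were close to the mean of the insertion, or 62.5%, against 11 of the other 15 host genes, or 73.3%, and 69.6% of all 23. The gene's fold was within 10% of the insertion's fold in 3 of the 8, against 4 of the other 15, or 26.7%. None of the 8 genes and none of their 9 insertions was listed with uniquely mapped reads, in either direction. Uniquely mapped entries listed as higher were 0.515% of about 21957. The deposited lists hold listed entries alone, so the level of a gene outside them is not known.

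**Figure D1:**
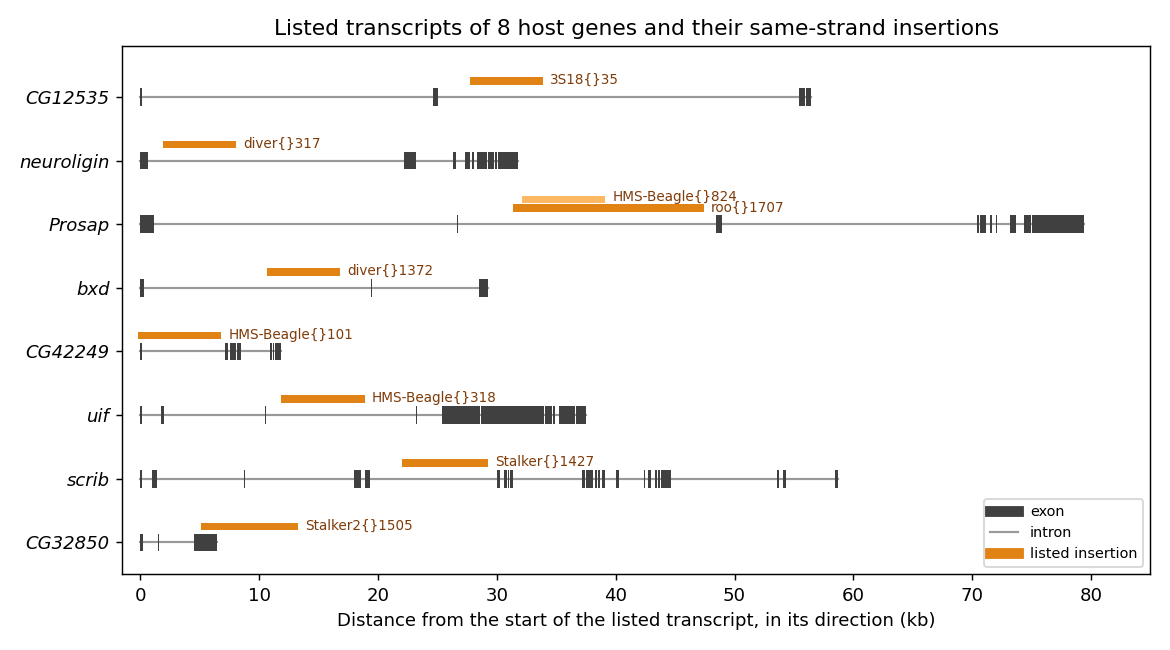
Listed transcripts of the 8 genes (for each, the one with the highest mean among those in the dm6 annotation), drawn 5′ to 3′ on a scale of distance from their start (kb), with exons as dark boxes, introns as lines and listed same-strand insertions as orange bars above (lighter for HMS-Beagle{}824, which is nested in roo{}1707). Of the 8 insertion sites, 6 lie wholly in an intron, the CG42249 transcript starts inside its insertion, and the CG32850 transcript ends inside its insertion.

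The annotation placed most of the transposons outside the exons of the listed transcripts. Of the 20 listed entries, 18 have a transcript model in dm6, and 15 of these have no exon base inside the insertion, which lies in an intron. Bxd and uif are among these, and their listed reads were nonetheless all, or all but 1, as many as those of the intronic insertion. Among dm6 transcripts whose identifiers are in the range of the lists, 18 of 28 that reach the insertion were listed and 0 of 3 that do not reach it were. Outside scrib all 13 that reach it were listed, and the 10 unlisted ones were all transcripts of scrib. The genes were chosen for being listed, and transcripts of a gene share reads. These counts were therefore partly set by the choice and are a description with no test.

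**Figure D2:**
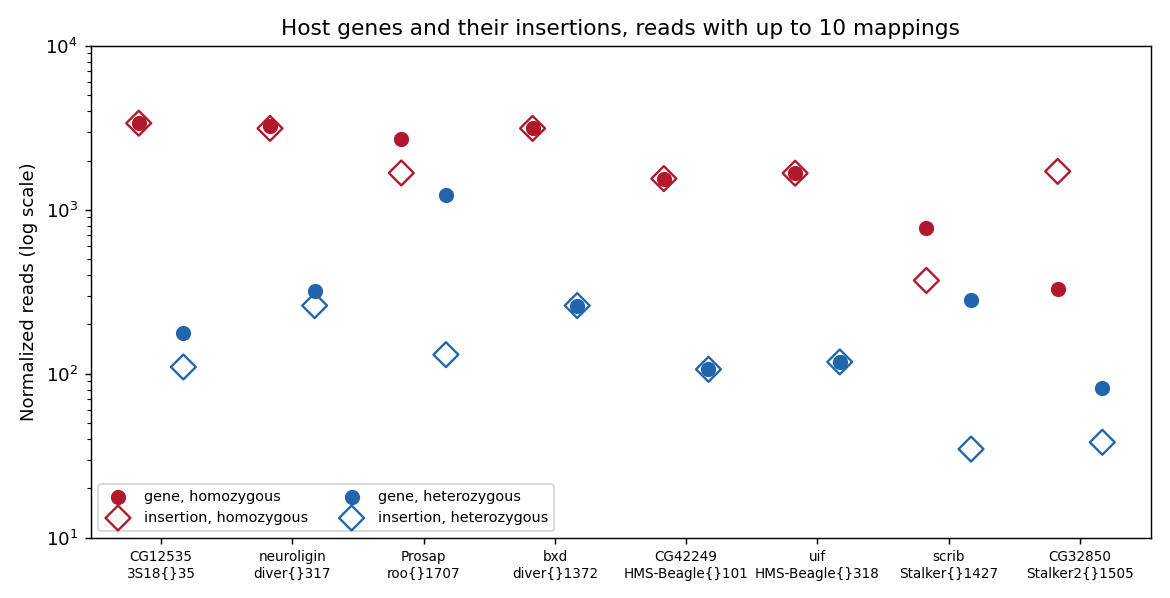
Normalized reads (log axis) of each host gene (filled circles) and of its same-strand insertion with the highest mean (open diamonds), in the homozygous (red, left) and the heterozygous library (blue, right). Circle and diamond coincide for bxd, CG42249 and uif in both libraries. In Prosap and scrib the gene lies above the insertion in both, and in CG32850 the homozygous gene value lies below it.

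Neuroligin and Prosap act at the synapse. Neuroligin, named Nlg2 in dm6, encodes an adhesion receptor of the postsynaptic membrane that binds neurexins. It lies on 2L from 6874900 to 6906656, plus strand (FBgn0031866), and diver{}317, of 6133 bases, lies in intron 1 of its listed transcript from 6876832 to 6882964. Neuroligin had 3253 normalized reads in homozygous ovaries, against 319 in heterozygous ovaries, a 10.2-fold difference (9.03 to 11.6). The insertion had 3142 in homozygous and 261 in heterozygous ovaries, 12.1-fold (10.5 to 13.8). After subtraction 129 homozygous and 50 heterozygous reads were left, or 111 and 57.9 normalized reads. The 1.92-fold difference that remained (1.38 to 2.72) was far smaller than the listed one. Over the 25.6 kb of the span outside the insertion this was 4.34 against 2.26 normalized reads per kb. Inside the insertion it was 512 in homozygous and 42.5 in heterozygous ovaries per kb. A shorter transcript, which starts 13868 bases beyond the insertion and has an identifier within the range of the lists, was not listed. The span also holds mir-932, a microRNA gene of 91 bases on the same strand, so the remaining reads need not all belong to neuroligin.

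Prosap encodes the fly member of the Shank family, scaffold proteins of the postsynaptic density. It lies on 2R from 14060456 to 14140902, minus strand (FBgn0040752). Its intron 2 holds roo{}1707, from 14093490 to 14109582, within which HMS-Beagle{}824 lies from 14101790 to 14108782. In homozygous ovaries both insertions had 1679 normalized reads, and in heterozygous ovaries roo{}1707 had 131 and HMS-Beagle{}824 had 129.8. The 9100 bases of roo{}1707 outside the nested element thus added 0 homozygous reads and 1 heterozygous read. In dm6 roo has 140 annotated copies and HMS-Beagle 23, and reads with over 10 mappings are not in these lists. Prosap was listed with 2 transcripts, at 2711 normalized reads in homozygous and 1232 in heterozygous ovaries for FBtr0304956, 2.20-fold (2.05 to 2.36). The other, FBtr0087601, had 2527 in homozygous and 1029 in heterozygous ovaries, 2.46-fold (2.28 to 2.65). Without the insertion 1031 normalized reads in homozygous and 1101 in heterozygous ovaries were left for FBtr0304956, a ratio of 0.937 (0.860 to 1.02). For FBtr0087601 the ratio was 0.944 (0.858 to 1.04), at 847 and 898 normalized reads. Both intervals include 1, so on 982 homozygous and 775 heterozygous reads or more no difference beyond counting error was seen in what is left of Prosap. It was the gene with the most reads left, 13.4 in homozygous and 14.2 in heterozygous ovaries per kb of span outside roo{}1707 for FBtr0087601.

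Bxd is a locus of noncoding transcripts in the bithorax complex, next to Ubx, whose regulatory region it crosses. It lies on 3R from 16742125 to 16773189, minus strand (FBgn0020556, lncRNA:bxd in dm6), and diver{}1372 lies in intron 1 of its 2 listed transcripts from 16756375 to 16762507. Bxd had 3142 normalized reads in homozygous and 261 in heterozygous ovaries, from 3641 and 225 reads, 12.1-fold (10.5 to 13.8). Its insertion had the same number of reads in each library, so 0 reads were left in either. With a limit of 3 reads on a count of 0, up to 2.59 normalized reads in homozygous and 3.48 in heterozygous ovaries are allowed over 23.1 kb. The 0 reads include those of CG31275, a gene of 594 bases within the same span and strand. The other dm6 transcripts of bxd, which start 4166 and 9989 bases downstream of the insertion in the direction of transcription, were not listed. The values of bxd were also those of diver{}317 in neuroligin, to the read, a copy on another chromosome arm.

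Uif (uninflatable) and scrib (scribble) act in epithelia. Uif encodes a large transmembrane protein of the apical membrane that modifies Notch signalling, and lies on 2L from 6972828 to 7010359, minus strand (FBgn0031879). HMS-Beagle{}318, from 6991487 to 6998548, lies in intron 2 or 3 of its listed transcripts. Its 6 entries had the same value, 1675 normalized reads in homozygous and 118 in heterozygous ovaries, 14.2-fold (11.6 to 17.5). The insertion had 1674 in homozygous and 118 in heterozygous ovaries, so 1 homozygous and 0 heterozygous reads were left over 30.5 kb. No ratio is given for what is left of uif.

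Scrib encodes a scaffold protein that sets apicobasal polarity, together with dlg1 and l(2)gl, and is needed in the follicle epithelium. It lies on 3R from 26536350 to 26604051, plus strand (FBgn0263289). Stalker{}1427, from 26558383 to 26565637, lies in intron 5 or 6 of the listed transcripts and had 371 normalized reads in homozygous and 34.8 in heterozygous ovaries, 10.7-fold (7.37 to 16.0). The 5 listed transcripts share 1 start and differ in where they end. The shortest, FBtr0308624, ends at 26577175 and had 572 normalized reads in homozygous and 152 in heterozygous ovaries, 3.77-fold (3.12 to 4.58). The longest listed, FBtr0308622, ends at 26595018 and had 775 in homozygous and 284 in heterozygous ovaries, 2.73-fold (2.37 to 3.16). The longer the span, the lower was the fold across the 5. The insertion held 38.3% of the mean in the longest and 56.1% in the shortest. The adjusted p in the authors' deposited table was 0.00344 for the shortest and 0.0422 for the longest, and the 10 unlisted transcripts within the identifier range end at 26596188 or beyond.

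**Figure D3:**
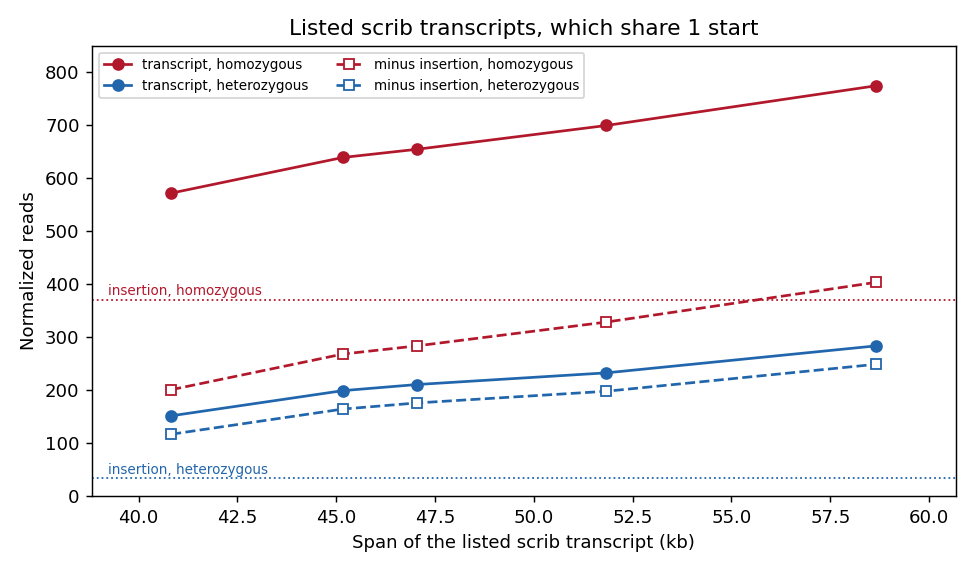
Normalized reads of the 5 listed scrib transcripts (filled circles) against their span (kb), and the same after subtraction of Stalker{}1427 (open squares), in the homozygous (red) and the heterozygous library (blue), with dotted lines at the insertion's own level. After subtraction the homozygous values lie above the heterozygous ones in all 5 transcripts, by 1.61-fold to 1.72-fold, which are nested spans and not independent.

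What was left of scrib was higher in homozygous ovaries. For the longest transcript it was 404 normalized reads in homozygous and 249 in heterozygous ovaries, 1.62-fold (1.38 to 1.91), and over the 5 transcripts the ratio was between 1.61 and 1.72. A value that does not rest on the insertion's own count is the difference between the longest and the shortest listed transcript, whose ends both lie downstream of the insertion. Over the 17843 bases between these ends there were 235 homozygous and 114 heterozygous reads, or 203 and 132 normalized reads, 1.54-fold (1.22 to 1.94). Each of the 4 segments between successive ends had more normalized reads in homozygous ovaries, by 1.34-fold to 2.04-fold, and the intervals of 2 of them include 1. Scrib contains no other annotated gene on its strand.

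CG32850, named Rnf11 in dm6, encodes a RING finger protein. RNF11 of mammals takes part in ubiquitin ligation. The gene lies on chromosome 4 from 314923 to 331387, plus strand (FBgn0052850), and Stalker2{}1505 from 320044 to 328162. Here the transposon is part of the annotated message. The listed transcript, FBtr0089123, ends at 321385, inside the insertion, so that 1342 of its 2311 exon bases, 58.1%, are transposon sequence, all of them 3′ untranslated. Those 1342 bases are 16.5% of the insertion. CG32850 had 328 normalized reads in homozygous and 82.3 in heterozygous ovaries, 3.99-fold (3.09 to 5.21), while Stalker2{}1505 had 1717 in homozygous and 38.2 in heterozygous ovaries, 44.9-fold (31.9 to 65.4). The homozygous value was 19.1% of the insertion's, so any number of the gene's 380 homozygous reads may lie in the insertion. In the heterozygous library the gene had 71 reads and the whole insertion 33, so at least 38 heterozygous reads, 44.0 normalized reads, lay outside the insertion. What is left in homozygous ovaries cannot be computed, since the list does not split the insertion's reads by position, and no fold is given.

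CG12535 and CG42249 have no other name in the annotation used. CG12535 lies on the X chromosome from 3387944 to 3448943, minus strand (FBgn0029657), and 3S18{}35 lies in intron 2 of its listed transcript from 3415073 to 3421199. The gene had 3395 normalized reads in homozygous and 178 in heterozygous ovaries, 19.0-fold (16.2 to 22.5), and the insertion 3379 in homozygous and 110.1 in heterozygous ovaries, 30.7-fold (25.0 to 38.0). What was left ran in the other direction. There were 18 homozygous and 59 heterozygous reads outside the insertion, or 15.5 and 68.4 normalized reads, a ratio of 0.227 (0.126 to 0.391). The insertion held 99.5% of the gene's normalized reads in homozygous and 61.7% in heterozygous ovaries. The span also contains CG14269, of 865 bases, and a tRNA gene of 72 bases on the same strand, so the remaining reads need not be those of CG12535. Neither nested gene was listed. The position of the remaining reads within the span is not given by the list.

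CG42249 lies on the X chromosome from 11096273 to 11108148, plus strand (FBgn0259101). HMS-Beagle{}101, from 11096053 to 11103097, begins 220 bases before the gene, and both listed transcripts start inside it, with 33 bases of 5′ untranslated exon in the insertion. The gene and the insertion had the same reads, 1798 homozygous and 92 heterozygous, or 1552 normalized reads in homozygous and 107 in heterozygous ovaries, 14.6-fold (11.8 to 18.1). Subtraction left 0 reads over the 5.05 kb of the longer transcript beyond the insertion. The 220 bases before the gene may hold insertion reads not counted for it, so the remainder is not fixed at 0.

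**Figure D4:**
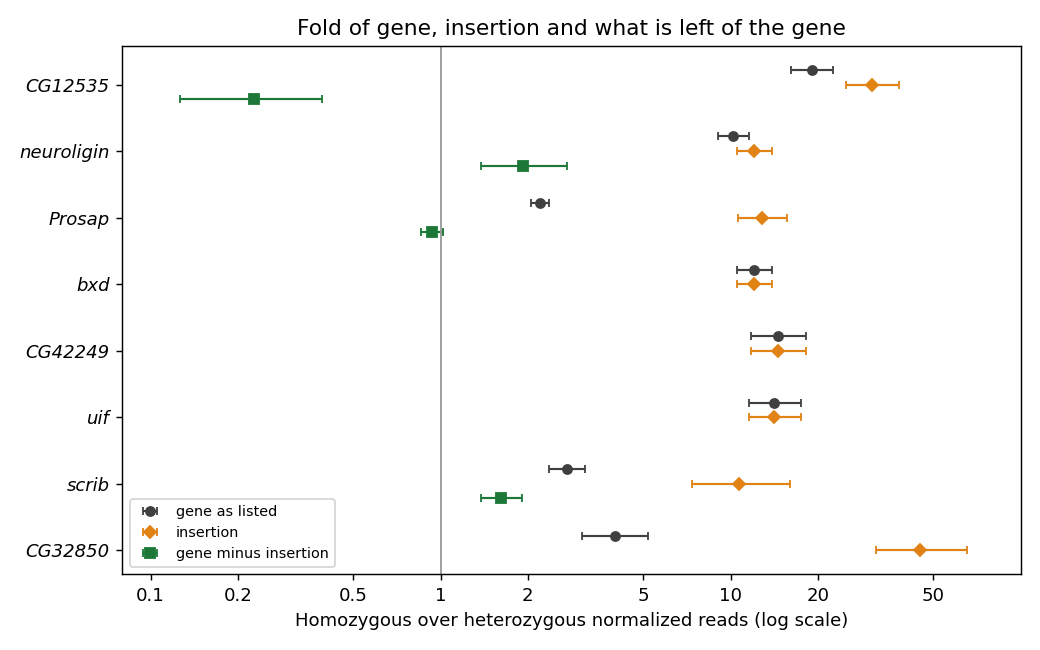
Homozygous over heterozygous normalized reads (log axis) for each gene as listed (circles), for its insertion (diamonds) and for the gene minus the insertion (squares), with exact 95% counting intervals. Squares lie at 0.227 for CG12535, 0.937 for Prosap, 1.62 for scrib and 1.92 for neuroligin. The other 4 genes have none because too few reads were left or subtraction was not possible.

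Across the genes with reads left, the values after subtraction did not share a direction. Of the 4 with at least 20 reads left, neuroligin and scrib were higher, CG12535 was lower, and the interval of Prosap included 1. Of the other host genes, 11 had at least 20 reads left, with ratios between 0.677 and 2.19 and a median of 1.16. In those 11 genes, 4 intervals lay above 1 and 0 below 1. The value of CG12535 was below the lowest of them.

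The lists do not say from which copy of a family a read came. The copy in bxd and the copy in neuroligin had the same reads in both libraries as each other and as diver{}1223 and diver{}1465, which makes 4 of 9 listed diver copies. The means of the 9 lay between 1557 and 1735, and their folds between 11.8 and 12.2. HMS-Beagle{}101 in CG42249 had the same reads as HMS-Beagle{}1214, and 3S18{}35 in CG12535 the same as 3S18{}853. The copies in uif, scrib, Prosap and CG32850 had no exact match. Of the 8 listed Stalker2 copies the means lay between 737 and 879, with folds of 36.4 to 45.0, and Stalker2{}1505 was second highest. Stalker{}1427 had the highest mean of 5 listed Stalker copies, 203, against 60.4 for the lowest. Copies of at least 90% of the length of the insertion numbered 9 for diver in dm6, all of them listed, 8 for Stalker2, 7 of them listed, 5 for 3S18, 4 of them listed, and 4 for Stalker, all listed. For HMS-Beagle{}101 they numbered 11, of which 10 were listed. For roo{}1707, whose length includes the nested HMS-Beagle{}824, they numbered 5, of which 2 were listed. Means of the listed HMS-Beagle copies lay between 464 and 905. Folds lay between 6.93 and 15.4 over the 11 HMS-Beagle copies. The 2 roo copies had folds of 12.8 and 32.8. The count of roo{}1707 was that of its nested HMS-Beagle{}824 plus 1 heterozygous read, so 12.8 need not be a roo value. Means of the 9 listed 3S18 copies lay between 80.3 and 1749. The 4 of at least 90% of the length of 3S18{}35 had means of 1717 to 1749 and folds of 30.7 to 31.2.

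**Figure D5:**
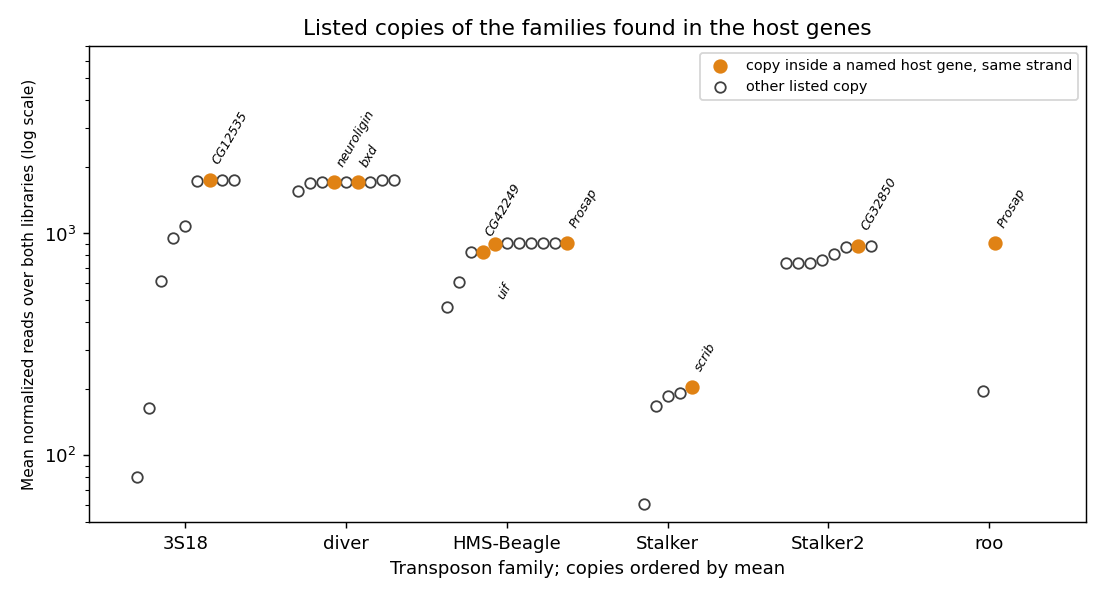
Mean normalized reads over both libraries (log axis) of every listed copy of the 6 families, ordered by mean within a family. Orange points are copies inside the named genes on their strand and open points other listed copies. The roo point of Prosap rests on the reads of the nested HMS-Beagle{}824. The diver copies in neuroligin and bxd lie at 1701, level with diver{}1223 and diver{}1465 and within the family's range of 1557 to 1735.

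Most listed host genes shared the strand of their insertion. Of the dm6 genes that wholly contain a listed insertion on their own strand, 22 of 29 were listed as higher, or 75.9% (exact interval 56.5 to 89.7). Where the insertion was on the other strand only, 1 of 31 was listed, or 3.23% (0.0816 to 16.7). With insertions of a mean of at least 500 normalized reads the counts were 18 of 20 on the same strand and 0 of 20 on the opposite strand, 0% with an exact interval up to 16.8%. For the 6 families named above, 8 of 8 such genes were listed on the same strand, 7 of them among the genes described here, and 0 of 10 on the opposite strand. Counting any overlap, 23 of 34 genes were listed on the same strand, or 67.6%, and 1 of 35 on the opposite strand, or 2.86%. Madm, which holds only part of diver{}1223 on its strand, was not listed. The 8 genes described here were chosen for being listed and for the same-strand rule, so their part in these counts was fixed. The counts are a description with no test. Genes were matched by their dm6 identifier alone, so one whose identifier changed after the lists were made would count as not listed. Whether this holds for Fhos and Ten-a on the same strand, or br and rg on the opposite strand, was not checked. The intervals do not cover this. In none of the 8 did a listed insertion lie on the opposite strand.

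Lists of genes from the members' pathways held no listed entry beyond the members themselves, with 1.55% of all entries listed as higher. Of 16 synapse adhesion and scaffold genes, 2 were listed as higher with up to 10 mappings, neuroligin and Prosap themselves. Scrib was the single one of 17 genes of apicobasal polarity and junctions, bxd of 9 names of the bithorax complex and uif of 13 names of the Notch pathway and its modifiers. None of the members of these 4 lists was listed as lower, or in either direction with uniquely mapped reads. Of the bithorax names 5 of 9 and of the Notch names 11 of 13 could be matched to an identifier. A gene whose identifier changed after the deposited lists were made would count as not listed.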

How the data were processed

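RNA of 2 ovary libraries was analysed from 4 of the 5 deposited lists. Build dm3, DESeq 1.8.2, bedtools, Bowtie 0.12.8 and TopHat 1.4.1 are named, without their roles, per the submitters' processing notes. Total RNA was reverse transcribed with not-so-random primers, per the labels' protocols. The signal that the authors deposited is a normalized read count, given as a mean over both libraries and, for uniquely mapped reads, for each library too, per the file headers. The deposited fold has heterozygous ovaries on top and was inverted here, and the deposited log2 value is the log2 of that ratio. The p-value columns are those of the authors, on 1 library per genotype, and none was computed here.

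Of the lists that allow up to 10 mappings, 4 columns carry names matching neither sample, and these were left aside. Values per library were computed from the authors' mean and fold instead. That both kinds of list hold 1 comparison was taken from the entries they share, of which 16 of 26 lower and 18 of 108 higher ones had the same reads in both. All 367 higher entries gave whole reads within 0.01 read. Total depth is unknown, as only listed features are given. The size factor of the homozygous library was 1.34 times that of the heterozygous one, which need not equal the ratio of their depths.

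Positions came from the Ensembl release 115 annotation (dm6), matched by FlyBase identifier for 182 of 184 insertions and never converted from dm3. The files give no positions. Where a gene had several entries or insertions, those with the highest mean stood for it. Ratios have exact conditional binomial intervals (Clopper-Pearson, 95%, scipy 1.17.1), which cover counting error only, and were tested on simulated data. The text names all 8 genes, every listed insertion in them and any listed member of the fixed pathway lists. The members and lists were chosen with earlier results of these data known. Alternatives were other tolerances, pseudocounts, filters, strands and entries. The list of cluster strands was not used here.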

Additional observations from a re-analysis of the deposited data

How the results depend on the processing

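No paired analysis was possible because only 1 library was made of each genotype, and for the same reason none could be left out. The 5 genes with a mean close to the insertion's were also 5 with a tolerance of 5% or 25%, with the lowest entry per gene, and where the adjusted p of the authors' deposited table had to be under 0.01. Allowing either strand or asking for an insertion mean of at least 100 could not change a value, as no insertion was added or removed. They were 6 with the sum of all insertions, which counts the reads of the nested HMS-Beagle{}824 again in Prosap. The median share of the gene's mean held by the insertion, without CG32850, was 97.7%, and 99.95% with an adjusted p under 0.01, where fewer genes remain. It was 98.8% with CG32850 included, a setting chosen after seeing the data. The 3 genes with a fold close to the insertion's became 4 at 25% and stayed 3 in number with pseudocounts of 1 and 10. The count of 0 genes with uniquely mapped reads was also 0 by name, and a stricter adjusted p could not change it. A pseudocount of 10 moved none of the 8 folds outside its counting interval. Subtracting the sum of insertions gave no value for Prosap, where in the homozygous library it exceeds the gene, and no gene had a fold with uniquely mapped reads. Depth limits CG12535, with 18 homozygous reads left.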
